A study of Mus musculus with 4 samples.

Results

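Wnt signalling was described through 50 genes of the mouse cerebral cortex on postnatal day 1: 19 Wnt ligands, 12 receptors, 9 secreted inhibitors, 6 genes of the R-spondin axis and 4 genes of feedback and transcription. The members were chosen by gene symbol from the 55414 genes of the deposited table: every Wnt, Fzd, Sfrp, Dkk and Rspo gene, plus Lrp5, Lrp6, Rnf43, Znrf3, Axin2, Lef1, Tcf7l2, Nkd1 and Wif1. RNA came from C57BL/6J mice of 2 genotypes. The libraries labelled cKO (replicates 2 and 3) carried Mkk7 flox/flox with Emx1-Cre, and the libraries labelled Control (replicates 2 and 3) carried Mkk7 flox/flox without Cre. MKK7, encoded by Map2k7, is a kinase that activates JNK, and Emx1-Cre acts in dorsal telencephalic progenitors, whose excitatory neurons and glia inherit the recombined alleles, so cortical cells of other origin keep intact floxed alleles. The comparison asked what loss of MKK7 does to gene expression in the newborn cortex.

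Wnt proteins are lipid-modified secreted ligands that bind Frizzled receptors. With the co-receptors LRP5 and LRP6 they stabilise beta-catenin, which acts with TCF and LEF factors in the nucleus; other Wnt ligands act through planar cell polarity and JNK. SFRP and WIF1 proteins bind the ligands, DKK1 and DKK2 bind the co-receptors, and R-spondins protect the receptors from removal by the ubiquitin ligases RNF43 and ZNRF3. In the developing cortex the pathway is known for patterning from the cortical hem, for progenitor division, for axon and dendrite growth and for blood vessel growth.

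Totals were 19421470 and 22511175 counts in the libraries labelled cKO and 19429868 and 19842152 in those labelled Control, of which the 50 members took 14475 to 22412. Map2k7 stood at 47.9 and 48.2 CPM (counts scaled to library size) in the libraries labelled cKO and at 38.4 and 30.4 CPM in those labelled Control. On that scale both cKO libraries lay above both Control libraries. The groups overlapped in TPM (scaled to length and library size). Map2k7 stood at 17.0 and 19.8 TPM in the libraries labelled cKO and at 17.6 and 12.5 TPM in those labelled Control. The position of the loxP sites is not in the labels, reads outside a deleted part check nothing, and every direction below rests on the labels. Xist and Ddx3y counts marked cKO 3 as male, and cKO 2, Control 2 and Control 3 as female. Cortical projection neuron markers were present in every library, and none of the 10 was at 0. Their summed level was 970 and 1061 TPM in the libraries labelled cKO and 798 and 920 TPM in those labelled Control. Choroid plexus markers set both replicate 2 libraries apart from both replicate 3 libraries: they summed to 453 and 10.7 TPM in cKO 2 and cKO 3 and to 1108 and 15.6 TPM in Control 2 and Control 3. Striatal markers summed to 140 and 160 TPM in the libraries labelled cKO and to 512 and 372 TPM in those labelled Control. Of these markers 15 of 15 had a negative log2 fold change, where 49.8% of all tested genes were positive. In such bulk samples, fewer cells of a type and less RNA per cell cannot be told apart.

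Among the members, 8 averaged at least 10 TPM over the 4 libraries, 23 lay between 1 and 10 TPM, 16 had counts but less than 1 TPM, and Wnt8a, Wnt10b and Dkk4 had 0 counts in every library. The low-count filter left 39 members. The 11 that did not pass were those 3 and Wnt1, Wnt3a, Wnt9b, Wnt10a, Wnt16, Fzd5, Dkk1 and Rspo4, none of which had more than 33 counts or 0.844 TPM in a library.

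No member differed between the genotypes at an adjusted p below 0.05 (edgeR quasi-likelihood test over 17017 genes, of which 0.0470% were called, 0.00588% higher and 0.0411% lower). DESeq2 and limma-voom also called 0 members. At an unadjusted p below 0.05, 7 of the 39 members had positive and 2 negative log2 fold changes, where 10.9% of all tested genes passed (5.28% positive, 5.66% negative). With 1 library left out a genotype keeps a single library, so counts past this threshold were not compared between those fits. The log2 fold changes of these 9 members kept their sign in each of them. That adds no support, since the members were picked by this p. On log2 TPM (limma, added after seeing the data) the counts were 3 positive and 1 negative. The 7 were Wnt7b, Wnt5a, Lrp6, Sfrp1, Rspo2, Rspo3 and Nkd1, and the 2 were Rnf43 and Tcf7l2; Rnf43 passed the low-count filter through the libraries labelled Control alone, so it had to differ. The groups did not overlap in CPM for 14 members, 11 of them higher and 3 lower in the libraries labelled cKO. That is 35.9% of the 39, fewer than the 44.1% of all tested genes (22.0% higher, 22.2% lower). The median log2 fold change over the tested members was 0.14, with 25 positive and 14 negative, against -0.00 and 49.8% positive over all tested genes. The median depended on single libraries: it was 0.36 without cKO 2, 0.04 without cKO 3, 0.37 without Control 2 and 0.21 without Control 3. Over the libraries, the median log2 deviation of the tested members from their own means was -0.01 and 0.28 in cKO 2 and cKO 3 and -0.07 and -0.15 in Control 2 and Control 3, so cKO 3 alone stood high.

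**Figure D1:**
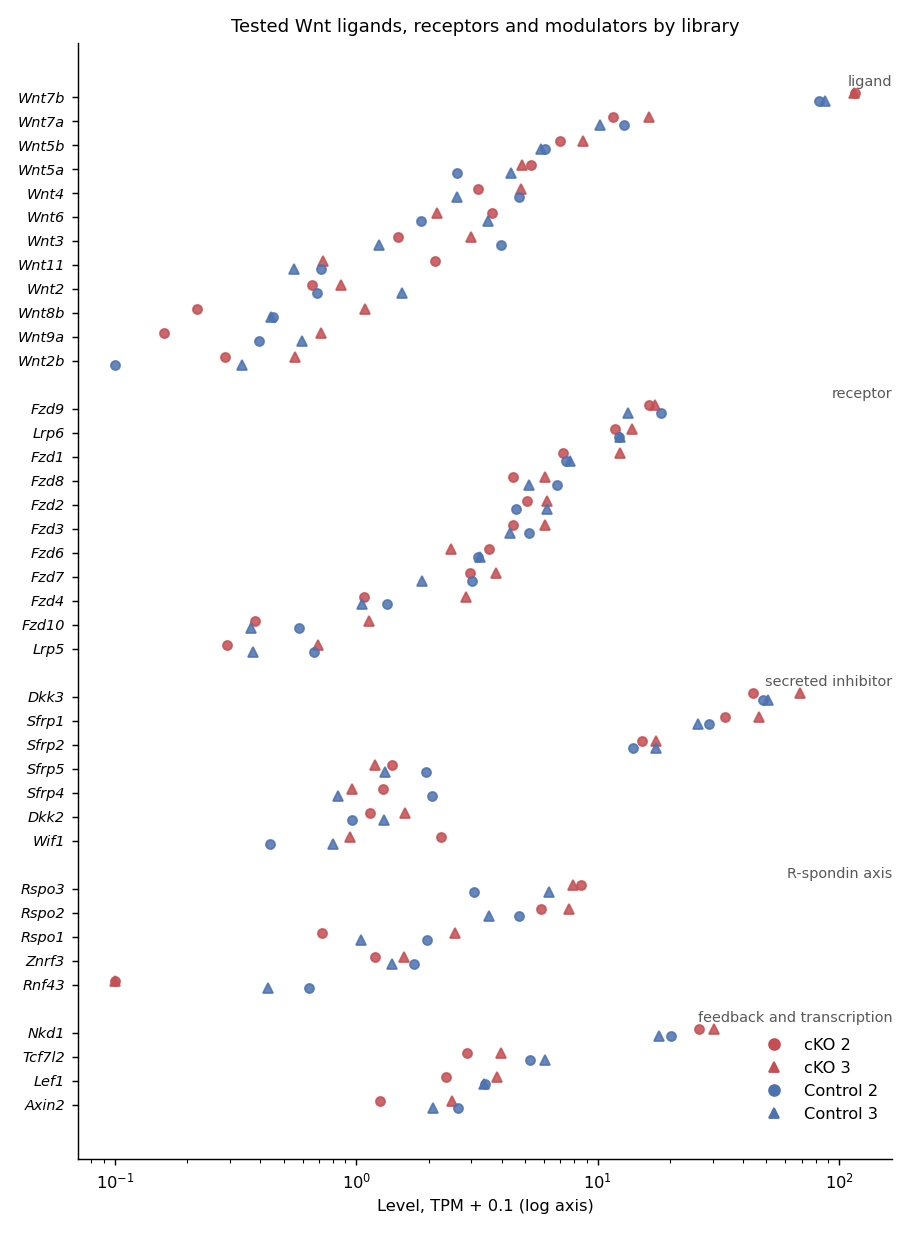
Level of each tested member in each library as TPM + 0.1 on a log axis, grouped by role and ordered by mean TPM; red points are libraries labelled cKO (drawn above) and blue points those labelled Control. Wnt7b, Dkk3 and Sfrp1 lie at the high end, and the genes whose groups are apart include Wnt7b, Nkd1, Rspo2, Rspo3 and Tcf7l2.

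**Figure D2:**
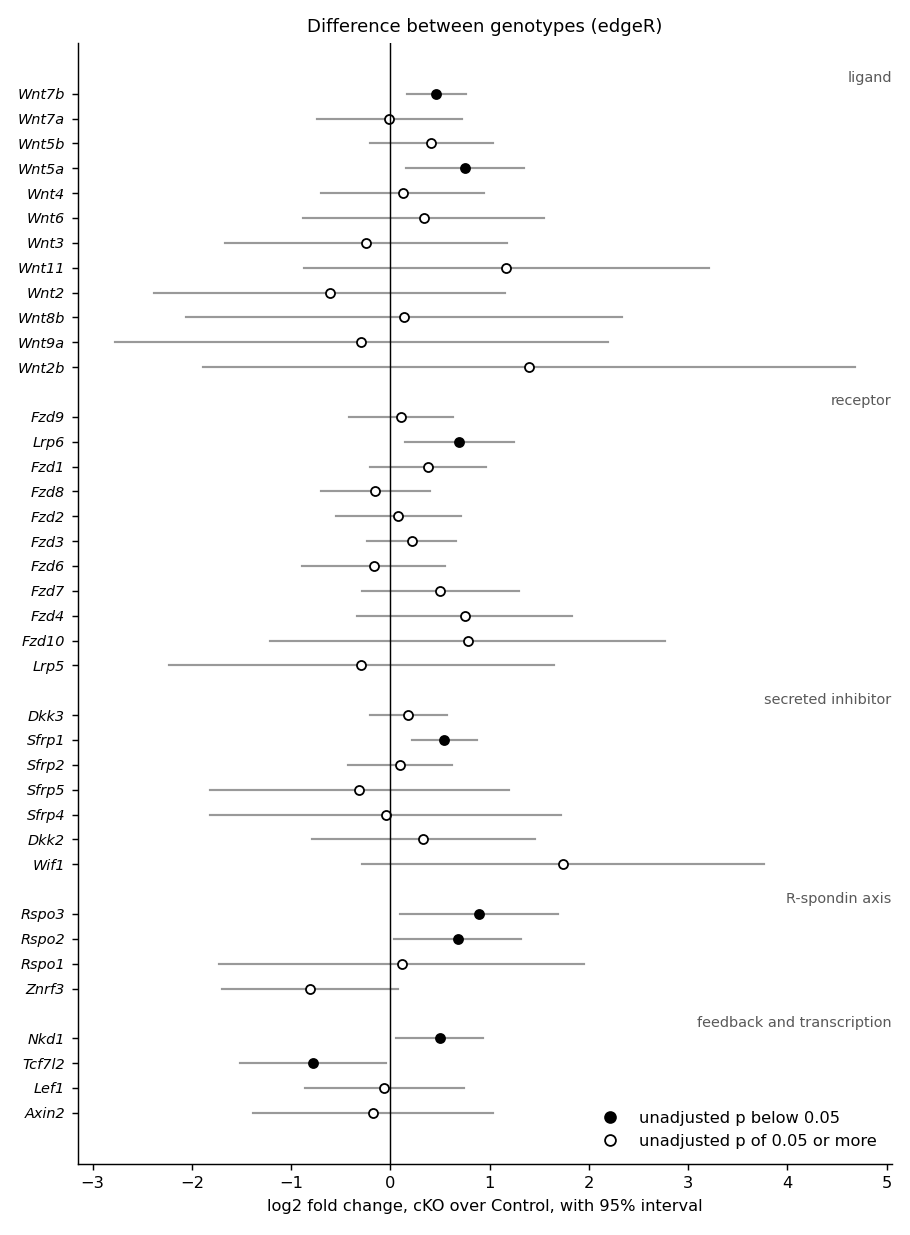
log2 fold change of the libraries labelled cKO over those labelled Control with 95% intervals (edgeR) for 38 tested members; Rnf43 is left out because it had 0 counts in one genotype. Filled points have an unadjusted p below 0.05, and none passed after adjustment.

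Wnt7b, the ligand of deep-layer cortical neurons that also drives brain vessel growth, was by far the most abundant ligand. Its gene (ENSMUSG00000022382.16, chromosome 15, 85419638 to 85466674, GRCm39) stood at 117 and 115 TPM in cKO 2 and cKO 3, against 82.2 and 87.2 TPM in Control 2 and Control 3. In counts it stood at 285 and 243 CPM in the libraries labelled cKO and at 182 and 200 CPM in those labelled Control. Both libraries labelled cKO lay above both labelled Control on either scale. The difference was 1.38-fold (log2 fold change 0.46, SE 0.13, 95% interval 0.16 to 0.76, n = 2 per genotype, edgeR adjusted p = 0.338), and lay between 0.35 and 0.57 on the log2 scale with any 1 library left out. Of the 10 cortical projection neuron markers summed above, 8 were positive with a median of 0.17 (0 called by edgeR), where 49.8% of all tested genes were positive. At an unadjusted p below 0.05 (edgeR) 3 were positive and 1 negative, where 10.9% of all tested genes passed. The groups did not overlap in CPM for 5 higher and 2 lower markers (70%, against 44.1% of all tested genes). The part of these cells in the Wnt7b value was not tested. The antisense gene AU022754 overlaps Wnt7b and averaged only 16 counts.

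The 19 ligand genes summed to 153 and 159 TPM in cKO 2 and cKO 3, against 116 and 119 TPM in Control 2 and Control 3. The means were 156 ± 4.10 TPM in the libraries labelled cKO and 117 ± 2.26 TPM in those labelled Control (SD, n = 2 each), a ratio of 1.33. The groups did not overlap; an exact two-sided permutation test gave p = 0.333, the smallest that 2 against 2 libraries allow. Wnt7b made up 76.4% and 72.3% of this sum in the libraries labelled cKO and 71.0% and 73.4% in those labelled Control, and these shares overlapped. Without Wnt7b the ligands summed to 36.1 and 44.0 TPM in the libraries labelled cKO and to 33.5 and 31.7 TPM in those labelled Control. Both sums were higher in the 2 libraries labelled cKO, and Wnt7b was the main ligand transcript in all 4 libraries.

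**Figure D3:**
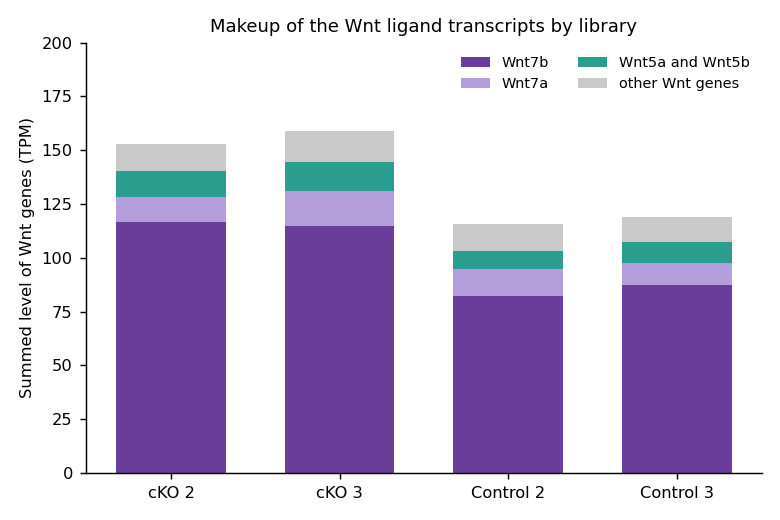
Summed TPM of the 19 Wnt genes in each library, split into Wnt7b, Wnt7a, both Wnt5 genes and the other genes. The bars reach 153 and 159 TPM in the libraries labelled cKO and 116 and 119 TPM in those labelled Control, and Wnt7b fills 71.0% to 76.4% of each.

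Wnt7a, which shares with Wnt7b the vascular receptor complex of RECK and GPR124, came next in level. Wnt7a stood at 11.5 and 16.3 TPM in cKO 2 and cKO 3, against 12.7 and 10.2 TPM in Control 2 and Control 3. On the count scale the order of the libraries changed: it was at 17.0 and 32.6 CPM in cKO 2 and cKO 3, against 26.4 and 23.7 CPM in Control 2 and Control 3. The log2 fold change was -0.01 (SE 0.31, 95% interval -0.74 to 0.72, edgeR adjusted p = 0.994), and its sign turned without cKO 2 (0.38) or Control 2 (0.07). The 2 libraries labelled cKO differed from each other more than the genotypes did.

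Wnt5a, a ligand of planar cell polarity and JNK signalling, stood at 15.5 and 15.4 CPM in cKO 2 and cKO 3, against 8.55 and 9.75 CPM in Control 2 and Control 3. The log2 fold change was 0.75 (SE 0.25, 95% interval 0.16 to 1.35, edgeR adjusted p = 0.399). Per length the gap was narrower, at 5.19 and 4.74 TPM in the libraries labelled cKO and 2.51 and 4.27 TPM in those labelled Control, and the groups still did not overlap. Its paralog Wnt5b stood at 6.89 and 8.62 TPM in the libraries labelled cKO and at 5.93 and 5.75 TPM in those labelled Control (log2 fold change 0.41, SE 0.26, edgeR adjusted p = 0.610). Wnt5b overlaps Fbxl14 on the opposite strand, which averaged 402 counts, and the SMART-Seq v4 kit does not mark the strand, so its values are uncertain.

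The remaining 8 tested ligands, Wnt4, Wnt6, Wnt3, Wnt11, Wnt2, Wnt8b, Wnt9a and Wnt2b in order of level, averaged 3.74 to 0.220 TPM. None of their groups was apart in CPM, and their log2 fold changes lay between -0.61 and 1.39 with SEs of 0.35 to 1.40. In this order each gene overlapped the next across libraries. Wnt genes often sit side by side in the genome, and 4 such pairs lay within 100 kb of each other: Wnt6 with Wnt10a on chromosome 1, Wnt9a with Wnt3a and Wnt3 with Wnt9b on chromosome 11, and Wnt1 with Wnt10b on chromosome 15. Wnt6 and Wnt10a are separated by 6193 bases; Wnt6 averaged 2.69 TPM and Wnt10a 0.140 TPM. Wnt3 averaged 2.32 TPM and Wnt9b, 24328 bases away, had counts only in cKO 2 (11 counts). Wnt3a, the ligand of the cortical hem, had 33 and 6 counts in cKO 2 and cKO 3, against 0 and 8 in Control 2 and Control 3.

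Of the Frizzled receptors, Fzd9 was the most abundant, and its groups overlapped. Fzd9 stood at 16.1 and 17.1 TPM in cKO 2 and cKO 3, against 18.2 and 13.3 TPM in Control 2 and Control 3 (log2 fold change 0.10, SE 0.22, 95% interval -0.42 to 0.63, edgeR adjusted p = 0.903). Fzd1 stood at 7.08 and 12.3 TPM in cKO 2 and cKO 3, against 7.29 and 7.60 TPM in Control 2 and Control 3 (log2 fold change 0.38, SE 0.25, edgeR adjusted p = 0.616). Here only cKO 3 stood apart, and without it the log2 fold change was 0.05. In CPM the groups did not overlap, but cKO 2 lay barely above Control 3. Fzd1 stood at 22.2 and 33.5 CPM in cKO 2 and cKO 3, against 20.7 and 22.1 CPM in Control 2 and Control 3. Fzd8, Fzd2, Fzd3, Fzd6, Fzd7 and Fzd4 averaged 5.53 to 1.48 TPM, and Fzd10 0.512 TPM, with log2 fold changes from -0.17 to 0.78. The 10 Frizzled genes summed to 44.5 and 57.2 TPM in the libraries labelled cKO and to 49.6 and 42.5 TPM in those labelled Control, which overlapped (exact two-sided permutation p = 0.667). Fzd4, named after its values were seen, was also high in 1 library alone, with 13.4 CPM in cKO 3 and 5.48, 6.36 and 4.92 CPM in cKO 2, Control 2 and Control 3.

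Lrp6, the main Wnt co-receptor of the embryo, gave different values on the count and length-corrected scales. It had 26.9 and 30.7 CPM in cKO 2 and cKO 3, against 20.5 and 15.1 CPM in Control 2 and Control 3 (log2 fold change 0.69, SE 0.23, 95% interval 0.14 to 1.24, edgeR adjusted p = 0.399). In TPM it stood at 11.7 and 13.8 in the libraries labelled cKO and at 12.1 and 12.3 in those labelled Control, so the groups overlapped and the log2 difference was 0.06 (limma on log2 TPM, adjusted p = 0.968, a test added after seeing the data; 0.293 to 0.968 over all alternatives). Counts divided by TPM give the length of transcript that the authors' software assigned, here expressed against the deposited gene length and the median gene. That apparent length was 0.414 and 0.450 of the listed length in cKO 2 and cKO 3, against 0.324 and 0.234 in Control 2 and Control 3. The spread between the 4 libraries, 0.95 on the log2 scale, was larger than that of 98.8% of the 11021 genes with at least 100 counts in every library. Its paralog Lrp5 averaged 0.406 TPM, and its log2 fold change was -0.29 (SE 0.83).

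The apparent length moved with the library for other members too. Of the 21 members with at least 100 counts in every library, 3 had a spread above the 95th percentile of all such genes (0.57 on the log2 scale), namely Lrp6, Wnt7a (0.73) and Wnt5a (0.60). Wnt7a was assigned 0.788 of its listed length in cKO 2 against 1.17 to 1.31 in the other libraries, the library in which its CPM was lowest. In contrast Wnt7b, Sfrp1 and Dkk3 varied by 0.04, 0.03 and 0.03, less than the median gene (0.11). For each of them the order of the libraries was the same in CPM and TPM. The sizes of the differences were not, since the ratio is set against the median gene of each library and leaves out offsets shared by all genes. Sfrp1 stood at 118 and 141 CPM in cKO 2 and cKO 3, and at 33.8 and 46.4 TPM. Wnt7b stood at 285 and 243 CPM in these libraries, and at 117 and 115 TPM. Groups that do not overlap in apparent length are common, at 37.9% of the 11021 genes.

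**Figure D4:**
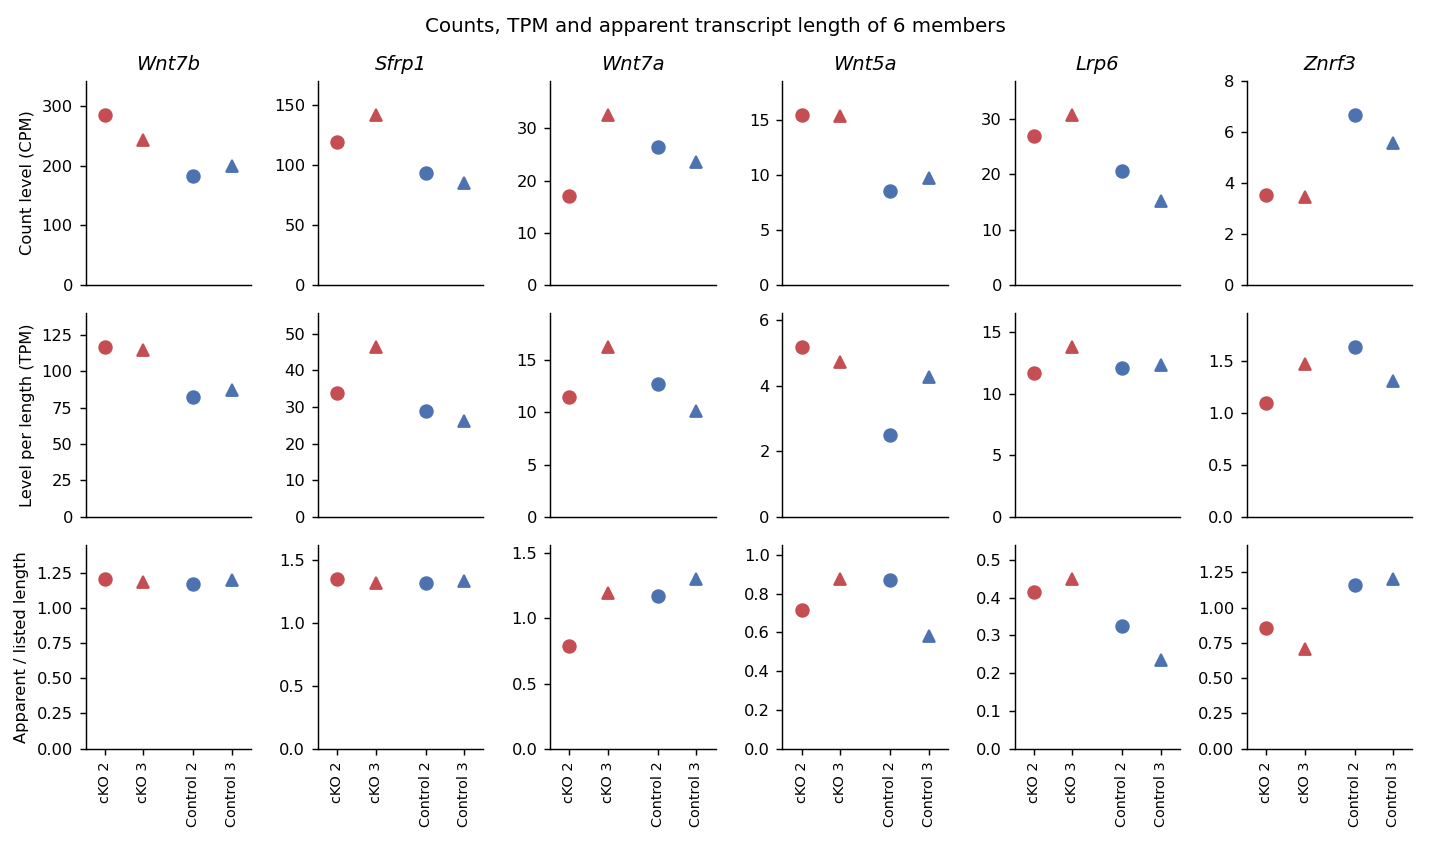
CPM (top), TPM (middle) and apparent transcript length relative to the listed gene length (bottom) for 6 members in each library; all axes start at 0. For Wnt7b and Sfrp1 the groups are apart in CPM and TPM while the length varies little; for Lrp6 and Znrf3 they are apart in CPM and length and overlap in TPM. Groups apart in length were found in 37.9% of the 11021 genes measured, and Znrf3 has fewer than 100 counts in both libraries labelled cKO.

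Sfrp1, a secreted Frizzled-related protein made by cortical progenitors that binds Wnt ligands had the smallest p of the inhibitors. Sfrp1 (ENSMUSG00000031548.8, chromosome 8, 23901518 to 23939648, GRCm39) had 118 and 141 CPM in cKO 2 and cKO 3, against 93.1 and 84.97 CPM in Control 2 and Control 3. The difference was 1.46-fold (log2 fold change 0.54, SE 0.14, 95% interval 0.22 to 0.87, edgeR adjusted p = 0.316), with values of 0.41 to 0.67 when 1 library was left out. DESeq2 gave an adjusted p of 0.0643 for Sfrp1 and 0.0688 for Wnt7b, the lowest over the alternatives, which reached 0.919 for both. In TPM it stood at 33.8 and 46.4 in the libraries labelled cKO and at 28.9 and 26.0 in those labelled Control. Markers of radial glia, a kind of progenitor, had a median log2 fold change of 0.01 over 10 genes. They summed to 2470 and 2337 TPM in the libraries labelled cKO and to 2668 and 2653 TPM in those labelled Control. Of these 10, 5 were positive, and 1 positive and 1 negative had an unadjusted p below 0.05 (edgeR). Of 6 tested markers of intermediate progenitors, another kind, 5 were positive with a median of 0.47, where 49.8% of all tested genes were positive. Of these 6, 2 had an unadjusted p below 0.05 (edgeR, 0 called), where 10.9% of all tested genes did. That list summed to 119 and 122 TPM in the libraries labelled cKO and to 83.3 and 111 TPM in those labelled Control, with Neurog1 at 0 in all 4. The part of progenitor numbers in the Sfrp1 value was not tested.

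Sfrp2 had overlapping groups, at 15.2 and 17.4 TPM in cKO 2 and cKO 3, against 13.97 and 17.3 TPM in Control 2 and Control 3 (log2 fold change 0.10, SE 0.22, edgeR adjusted p = 0.912). Sfrp1 accordingly made up 65.6% and 70.6% of the summed TPM of the 4 Sfrp genes in the libraries labelled cKO and 61.9% and 57.5% in those labelled Control (exact two-sided permutation p = 0.333, the smallest possible). Summed Sfrp level was 0.336 and 0.414 of the summed ligand level in the libraries labelled cKO and 0.403 and 0.381 in those labelled Control, so that ratio overlapped. For Sfrp5, at a mean of 1.36 TPM, the log2 fold change was -0.31 (SE 0.64), and for Sfrp4, at 1.19 TPM, it was -0.05 (SE 0.75).

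Dkk3, a divergent member of the Dickkopf family that neurons express, was the most abundant inhibitor gene and made up 97.5% to 98.0% of Dkk transcripts. It stood at 43.9 and 68.7 TPM in cKO 2 and cKO 3, against 48.2 and 50.6 TPM in Control 2 and Control 3 (log2 fold change 0.18, SE 0.17, edgeR adjusted p = 0.721). Again cKO 3 alone was high, and without it the log2 fold change was -0.06. Dkk1, whose protein binds LRP6, had 3 and 0 counts in the libraries labelled cKO and 3 and 0 in those labelled Control. Dkk2, whose protein also does, averaged 1.15 TPM (log2 fold change 0.33, SE 0.48). Wif1, named here after its values were seen, had the largest positive log2 fold change of the tested members at 1.74 (SE 0.86, 95% interval -0.29 to 3.76, edgeR adjusted p = 0.518). It rested on few reads, with 70 and 29 counts in cKO 2 and cKO 3 and 7 and 22 in Control 2 and Control 3.

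The R-spondin genes Rspo2 and Rspo3, whose proteins raise the number of Wnt receptors on the cell, both stood higher in the libraries labelled cKO. Rspo3 had 15.7 and 15.9 CPM in cKO 2 and cKO 3, against 5.96 and 11.1 CPM in Control 2 and Control 3 (log2 fold change 0.89, SE 0.34, 95% interval 0.10 to 1.69, edgeR adjusted p = 0.426). Control 2 was low: the log2 fold change was 0.51 without that library and 1.40 without Control 3. Rspo2 had 13.6 and 15.7 CPM in the libraries labelled cKO and 10.2 and 8.07 CPM in those labelled Control (log2 fold change 0.68, SE 0.27, 95% interval 0.04 to 1.32, edgeR adjusted p = 0.439).

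Rspo1 had no settled direction, at 0.790 and 2.71 CPM in cKO 2 and cKO 3 against 2.14 and 1.12 CPM in Control 2 and Control 3, with a log2 fold change of 0.11 (SE 0.79, edgeR adjusted p = 0.974). It was 0.74 without cKO 2 and -1.04 without cKO 3. The 4 R-spondin genes summed to 14.8 and 17.8 TPM in the libraries labelled cKO and to 9.49 and 10.6 TPM in those labelled Control, a ratio of 1.62 (exact two-sided permutation p = 0.333, the smallest possible). Of 13 meningeal and fibroblast markers, 0 were called by edgeR and 3 had an unadjusted p below 0.05, all positive. Of all tested genes 10.9% passed that threshold, 5.28% with a positive value. In that list 11 of 13 had a positive log2 fold change, where 49.8% of all tested genes did, with a median of 0.36 and sums of 275 and 253 TPM in the libraries labelled cKO and 176 and 226 TPM in those labelled Control, and none was at 0. Both genotypes were apart in CPM for 5 of these 13 markers (38.5%, against 44.1% of all tested genes). Markers of Cajal-Retzius cells and the cortical hem had a median of -0.19 over 8 genes, 2 of them positive, and summed to 88.2 and 134 TPM in the libraries labelled cKO and to 112 and 95.8 TPM in those labelled Control. The part of these cells in the R-spondin and Wnt5a values was not tested.

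Rnf43, which encodes a ubiquitin ligase that removes Frizzled proteins, was read only in the libraries labelled Control. It had 0 counts in cKO 2 and in cKO 3, against 29 and 18 counts in Control 2 and Control 3. Taking a floor of 3 counts over both libraries labelled cKO, it was at least 16.7-fold lower there (edgeR adjusted p = 0.280; counting error only, on 47 counts in all). As the gene passed the filter on the libraries labelled Control alone, its unadjusted p adds nothing beyond these counts. With Rnf43 at that floor the median of the members stays at 0.14.

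Its relative Znrf3, named after its values were seen, stood at 3.53 and 3.46 CPM in cKO 2 and cKO 3, against 6.67 and 5.58 CPM in Control 2 and Control 3 (log2 fold change -0.81, SE 0.38, 95% interval -1.69 to 0.08, edgeR adjusted p = 0.488). Like Lrp6 it overlapped in TPM, at 1.10 and 1.48 in the libraries labelled cKO and 1.64 and 1.31 in those labelled Control. Its apparent length was 0.857 and 0.704 of the listed length in cKO 2 and cKO 3, against 1.16 and 1.204 in Control 2 and Control 3; with 67 and 79 counts in cKO 2 and cKO 3, it lies under the 100 counts asked of the genes measured above. Kremen1, a DKK receptor gene, lies 14765 bases from Znrf3 on the same strand of chromosome 11 and had the smallest p of the other Wnt pathway genes, in the opposite direction.

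The feedback genes Axin2, Nkd1, Rnf43 and Znrf3 are widely used as readouts of beta-catenin activity, and their values lay on both sides of 0. Nkd1, which encodes a Dishevelled-binding inhibitor, stood at 26.1 and 30.3 TPM in cKO 2 and cKO 3, against 20.1 and 17.8 TPM in Control 2 and Control 3. Its log2 fold change was 0.50 (SE 0.19, 95% interval 0.06 to 0.93, edgeR adjusted p = 0.425), with 0.37 to 0.61 when 1 library was left out. Axin2, a scaffold of the complex that destroys beta-catenin, stood at 1.15 and 2.39 TPM in cKO 2 and cKO 3, against 2.53 and 1.99 TPM in Control 2 and Control 3 (log2 fold change -0.18, SE 0.52, 95% interval -1.39 to 1.03, edgeR adjusted p = 0.933). The interval of Axin2 is wide enough to hold the value of Nkd1, and no difference between the 2 genes was tested.

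The bases just before the start of 3 of these feedback genes are shown as a description. Axin2 had overlapping groups and Rnf43 passed the filter through the libraries labelled Control alone, so no contrast between the 3 is drawn. Each line gives 250 bases 5′ to 3′ from RefSeq (build GRCm38.p6, whose coordinates differ from the GRCm39 coordinates above), with CG dinucleotides in capitals.
Axin2 (chr11:108920099-108920348, + strand): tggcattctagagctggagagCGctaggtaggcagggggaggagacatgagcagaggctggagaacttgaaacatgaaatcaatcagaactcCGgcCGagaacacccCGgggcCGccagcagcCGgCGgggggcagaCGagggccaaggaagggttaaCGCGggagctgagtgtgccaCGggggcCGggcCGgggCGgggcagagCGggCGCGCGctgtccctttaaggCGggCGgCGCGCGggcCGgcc
Nkd1 (chr8:88527383-88527632, + strand): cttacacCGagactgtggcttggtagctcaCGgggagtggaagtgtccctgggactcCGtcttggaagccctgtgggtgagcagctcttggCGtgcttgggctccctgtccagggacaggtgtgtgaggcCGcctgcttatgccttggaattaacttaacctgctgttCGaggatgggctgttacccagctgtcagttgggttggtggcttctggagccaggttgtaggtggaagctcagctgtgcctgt
Rnf43 (chr11:87662837-87663086, + strand): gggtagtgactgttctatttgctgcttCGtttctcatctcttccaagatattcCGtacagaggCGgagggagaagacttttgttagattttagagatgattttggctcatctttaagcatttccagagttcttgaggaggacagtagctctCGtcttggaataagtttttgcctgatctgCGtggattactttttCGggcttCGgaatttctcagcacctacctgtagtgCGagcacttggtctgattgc
Rnf43 has 2 listed starts, and the window shown is that of the first; the window of the second (not shown) holds 2 CG dinucleotides. The windows shown for Axin2, Nkd1 and Rnf43 hold 24, 6 and 8 CG dinucleotides, where the median is 6 over all 32851 promoter windows and 20 over the 41 windows of the 33 members that the table lists. The core letters of the TCF and LEF motif, CTTTGA on either strand, occur in none of these 3 windows, in 5 of the 41 member windows (12.2%) and in 13.8% of all windows.

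Tcf7l2, which encodes a TCF factor that is abundant in the thalamus, was the only gene of the transcription group whose groups did not overlap downward. It had 5.27 and 7.53 CPM in cKO 2 and cKO 3, against 11.05 and 10.96 CPM in Control 2 and Control 3 (log2 fold change -0.78, SE 0.31, 95% interval -1.52 to -0.04, edgeR adjusted p = 0.439). Per length it stood at 2.79 and 3.86 TPM in the libraries labelled cKO and at 5.16 and 5.93 TPM in those labelled Control. Without cKO 2 the log2 fold change was -0.55 and without cKO 3 it was -1.06. Markers of thalamus and habenula had 5 of 7 tested genes negative with a median of -0.42, and summed to 41.4 and 50.4 TPM in the libraries labelled cKO and to 41.2 and 39.4 TPM in those labelled Control. Of the 7, 1 positive and 1 negative gene had an unadjusted p below 0.05 (edgeR), where 10.9% of all tested genes did. Gbx2 was at 0 in both libraries labelled cKO and at 1.23 and 2.03 TPM in Control 2 and Control 3. Its difference thus rests on the libraries labelled Control alone. Shox2 was at 0 in all 4 libraries. The striatal markers given above had 15 of 15 negative, where 49.8% of all tested genes were positive. By edgeR 1 was called lower (0.0411% of all tested genes), and 13 were negative at an unadjusted p below 0.05 (5.66% of all tested genes). The groups did not overlap in CPM for 93.3% of them, against 44.1% of all tested genes. The part of either tissue, thalamic or striatal, in the Tcf7l2 value was not tested.

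Lef1, a factor of the same family, stood at 2.25 and 3.72 TPM in cKO 2 and cKO 3, against 3.32 and 3.27 TPM in Control 2 and Control 3 (log2 fold change -0.06, SE 0.34, 95% interval -0.86 to 0.74, edgeR adjusted p = 0.968). Its sign turned without cKO 2 (0.20) and without Control 3 (0.02).

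**Figure D5:**
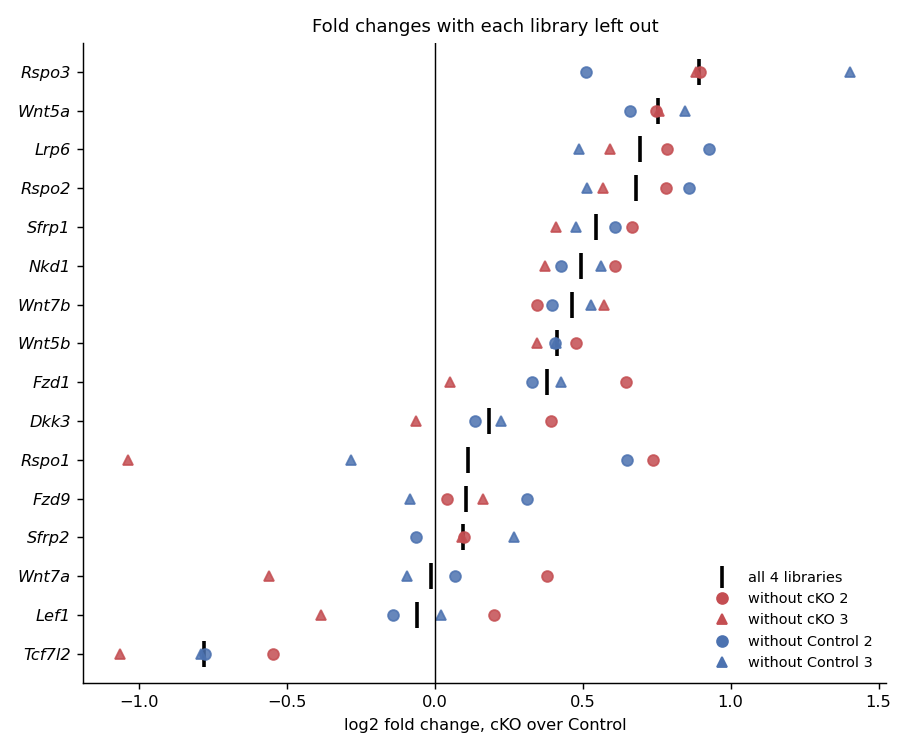
log2 fold change of 16 named members with all 4 libraries (black bars) and with each library left out (red for libraries labelled cKO, blue for those labelled Control). Rspo3, Wnt5a, Lrp6, Rspo2, Sfrp1, Nkd1, Wnt7b, Wnt5b and Fzd1 stay above 0 and Tcf7l2 below it, whereas Dkk3, Rspo1, Fzd9, Sfrp2, Wnt7a and Lef1 cross 0.

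Beyond the 50 members, 72 other Wnt pathway genes were read as 7 lists, and 66 were tested. None passed the adjusted threshold of edgeR; at an unadjusted p below 0.05 there were 5 positive and 2 negative genes (10.6% of the 66, against 10.9% of all tested genes). The median log2 fold change was 0.04, with 37 positive and 29 negative. DESeq2 called 1 of the 66, Kremen1, where it called 80 genes higher and 105 lower among all 17017 tested genes.

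Kremen1 was in the list of other receptors and co-receptors (13 tested, 8 positive), with 23.7 and 20.9 CPM in the libraries labelled cKO and 7.79 and 10.1 CPM in those labelled Control (log2 fold change 1.32, SE 0.25, edgeR adjusted p = 0.242). In the same list the value of Reck, a vascular partner of Wnt7a and Wnt7b, was -1.07 (SE 0.49, edgeR adjusted p = 0.482), on 35 to 87 counts per library. That of Adgra2, which encodes GPR124, was -0.09 (SE 0.42), with overlapping groups. Of the 16 genes of the destruction complex and Dishevelled, 8 were positive and 8 negative. The Dishevelled gene Dvl1 stood at 61.6 and 70.8 CPM in the libraries labelled cKO and 108 and 85.7 CPM in those labelled Control (log2 fold change -0.55, SE 0.16, edgeR adjusted p = 0.363), and Csnk1a1, which encodes the kinase that primes beta-catenin, had a value of 0.30 (SE 0.10).

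Among 7 tested secreted regulators, the log2 fold changes were 1.00 for Frzb, an SFRP relative (SE 0.39), and -0.93 for Dkkl1 (SE 0.39). Among 5 tested beta-catenin targets, Sp5, a transcription factor gene, had 4.37 and 3.94 CPM in the libraries labelled cKO and 1.78 and 1.83 CPM in those labelled Control (log2 fold change 1.2, SE 0.47, edgeR adjusted p = 0.431), and Myc had a value of 0.14 (SE 0.17). The polarity genes Prickle1 and Vangl1 had values of 0.46 (SE 0.17) and -0.83 (SE 0.35) in a list of 10 with 5 positive. Wls, the carrier that Wnt ligands need for secretion, stood at 46.5 and 48.5 CPM in the libraries labelled cKO and 28.1 and 41.8 CPM in those labelled Control (log2 fold change 0.44, SE 0.22, edgeR adjusted p = 0.519), and Notum, which removes the lipid of Wnt ligands, had a value of 0.42 (SE 0.43). Of the 11 nuclear cofactors, Tcf7l1 and Tle5 had the smallest p, with values of 0.53 (SE 0.43) and 0.10 (SE 0.11).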

How the data were processed

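RNA of the newborn cortex was sequenced in 4 libraries, 2 per genotype; per the labels' protocols, TRIzol-extracted, DNase-treated total RNA went into the SMART-Seq v4 kit. The deposited table gives estimated counts and TPM per gene and library, made by the authors with DRAGEN on GRCm39, per the submitters' processing notes; its version and the annotation release are not given in the sources at hand. TPM corrects for transcript length, so levels of different genes were compared only on that scale. Estimated counts were rounded. The default edgeR filter (edgeR 4.0.16, R 4.3.3) left 17017 genes, scaled with TMM and compared by the quasi-likelihood test with genotype as the only term, Benjamini-Hochberg adjustment and a threshold of 0.05. CPM values use the TMM-scaled library sizes. Each SE was taken as the size of the log2 fold change over the root of its F statistic. The procedure was tested on simulated counts. Alternatives were other scalings and filters, DESeq2 1.42.0, limma 3.58.1 (voom), robust shrinkage, a replicate block and leaving out each library; limma on log2(TPM + 0.5) was added after seeing the data. The labels do not tie libraries of a genotype to separate animals, so a p-value covers no more than the spread among the 4 libraries; Xist and Ddx3y counts place cKO 2 and cKO 3 in different animals, and leave this unsettled for the Control pair.

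Values per library are given for members with an unadjusted p below 0.05 and for the 3 most abundant of each role, and in each other list for up to 2 genes with the smallest p. The members, lists and marker genes were chosen with earlier results of these data known; all 226 listed symbols matched the table. Counting floors and intervals cover counting error only. The 2 libraries of a genotype were not copies of each other, since their counts differed by a chi-square per degree of freedom of 28.0 (cKO) and 13.0 (Control).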

Additional observations from a re-analysis of the deposited data

How the results depend on the processing

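No Wnt member was called in either direction under any of the 13 alternatives. Of 220 values of the 17 named members under them, 206 kept their sign and 14 turned it, all in Wnt7a, Lef1, Rspo1, Dkk3, Sfrp2 and Fzd9, whose values lie near 0. Wnt7a was at 0.026 with upper-quartile scaling, 0.25 on log2 TPM, and -0.56 to 0.38 with 1 library left out (0.38 without cKO 2, 0.068 without Control 2). Rspo1 was at -0.00063 with voom, -0.051 with the replicate block, -0.019 on log2 TPM, and -1.04 to 0.74 with 1 library left out (-1.04 without cKO 3, -0.28 without Control 3). With 1 library left out Lef1 ranged from -0.38 to 0.20 (0.20 without cKO 2, 0.019 without Control 3), Dkk3 from -0.063 (without cKO 3) to 0.39, Sfrp2 from -0.062 (without Control 2) to 0.27 and Fzd9 from -0.083 (without Control 3) to 0.31. The cause was not tested. The median of the members lay between 0.038 and 0.37 with 1 library left out; the fit then takes the lone library to vary like the other genotype.

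Over all genes, 1 was called higher and 7 lower. The calls were 21 and 37 without a filter, 2 and 7 at a mean CPM of at least 1, 80 and 105 by DESeq2, 3 and 5 by voom, 32 and 17 on log2 TPM, and 0 and 0 to 2 with 1 library left out. DESeq2 also called 1 other Wnt pathway gene. The labels do not say that a replicate number marks a shared litter or day. Deviations of same-numbered libraries correlated at 0.0049 over all tested genes. A value over all genes cannot show what a few genes share. The choroid plexus markers did split by replicate number, at 453 and 1108 TPM in cKO 2 and Control 2 against 10.7 and 15.6 TPM in cKO 3 and Control 3. With the replicate block 1 gene was called higher and 6 lower, and the median of the members was 0.17. Depth limits the members below 1 TPM, whose 95% intervals are wide.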
